A study of Homo sapiens with 8 samples.

Results

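Leukaemia cells from 2 sites of the same xenograft model were compared while both were under the FLT3 inhibitor gilteritinib. The comparison uses the 4 libraries of gilteritinib-treated mice out of 8 libraries in the study, which were picked by their labels. They are 2 from bone marrow and 2 labelled liver, with a standard and a ketogenic diet library at each site. The comparison and the gene lists were chosen with earlier results of these data known. All mice carried MOLM14, a human acute myeloid leukaemia line with an internal tandem duplication of FLT3 (FLT3-ITD) and a rearranged MLL gene (MLLr). Gilteritinib or vehicle was given for 1 week and the diet for 3 weeks. The 4 vehicle libraries, with the same sites and diets, are used only to show where the gilteritinib comparison differs. Each combination of site, drug and diet had 1 library, and the number of mice behind a library is not given in the sources used here. The marrow cells had been sorted for human CD45, whereas the other libraries are labelled as whole liver extract, with mouse cells and MOLM14 together. All marrow libraries carry 1 batch code and all libraries labelled liver another. Tissue label, preparation and batch therefore cannot be told apart in any difference below.

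FLT3 is a receptor tyrosine kinase of blood progenitors. Its internal tandem duplication keeps it active without ligand, and it then signals through STAT5, the MAP kinases and the PI3 kinase pathway to drive growth. Gilteritinib blocks the kinase, and cells that respond leave the cell cycle and can take on features of monocytes. Bone marrow is known as a site where leukaemia cells are protected from such inhibitors.

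The labels were checked against marker genes first. Hepatocyte genes were nearly absent from the counted human genes in all 4 libraries. They summed to 2.19 and 2.89 CPM (counts scaled to a common library size, here of the library total) in marrow and to 2.38 and 2.57 CPM in the libraries labelled liver, and albumin (ALB) and transthyretin (TTR) had 0 counts in each. For ALB a count of 0 allows up to 0.196 and 0.156 CPM in marrow and 0.113 CPM in both libraries labelled liver. Markers of leukaemia cells, led by lysozyme, summed to 5532 and 6047 CPM in marrow and to 7949 and 7034 CPM in the libraries labelled liver. Lysozyme alone made 59992 of 86067 and 94065 of 125681 of these counts in marrow. In labelled liver it made 169521 of 210644 and 160796 of 194529. Of 12 tested leukaemia markers 1 was called higher (8.33%) and 4 lower (33.3%) in labelled liver, at a median log2 difference of -0.16. Of all genes tested 5.91% were called higher and 5.93% lower. The libraries labelled liver thus carried almost no hepatocyte signal among human genes, and whether mouse reads were separated is not given in the sources used here. Library totals were 15557885 and 20783534 counts in marrow and 26499478 and 27657147 in the libraries labelled liver, so depth went with the label. Mitochondrial transcripts took 10.2% to 12.97% of counts in the 4 libraries. Throughout, pairs of values give the standard diet library first and the ketogenic diet library second, and per-library gene levels are in CPM scaled with TMM factors, which correct for composition.

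Under gilteritinib 1685 of 14229 tested genes differed between the labels, 841 higher and 844 lower in the libraries labelled liver. These are 11.8%, 5.91% and 5.93% of the genes tested (edgeR quasi-likelihood test with diet as a term, Benjamini-Hochberg adjusted p under 0.05). With library totals as the scaling the split was 1057 higher and 591 lower. Most changes were small: 124 of the genes called higher and 61 of those called lower changed 2-fold or more. Of the called genes 1677 had the same sign in both diet pairs, which the test favours, and of all 14229 tested genes 4525 were higher and 4656 lower in both. The ratios of the pairs, labelled liver over marrow, correlated across the 10162 genes whose log2 CPM averaged 2 or more (Pearson r 0.58, Spearman rho 0.51, across genes, which are not independent replicates). Among the 6894 genes averaging 4 or more in log2 CPM, the standard diet pair held 75 genes at least 2-fold higher (1.09%) and 4 at least 2-fold lower (0.0580%). The ketogenic diet pair held 20 (0.290%) and 10 (0.145%). Fold changes here rest on 4 libraries with 1 residual degree of freedom, and the test borrows nearly all of its spread from the other genes. Without the diet term 108 genes were called, 88 higher and 20 lower. With marrow standard diet left out the calls also fell. Every fit of these 4 libraries with 1 left out lacks the diet term as well, so diet and tissue label are mixed in its contrast.

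**Figure D1:**
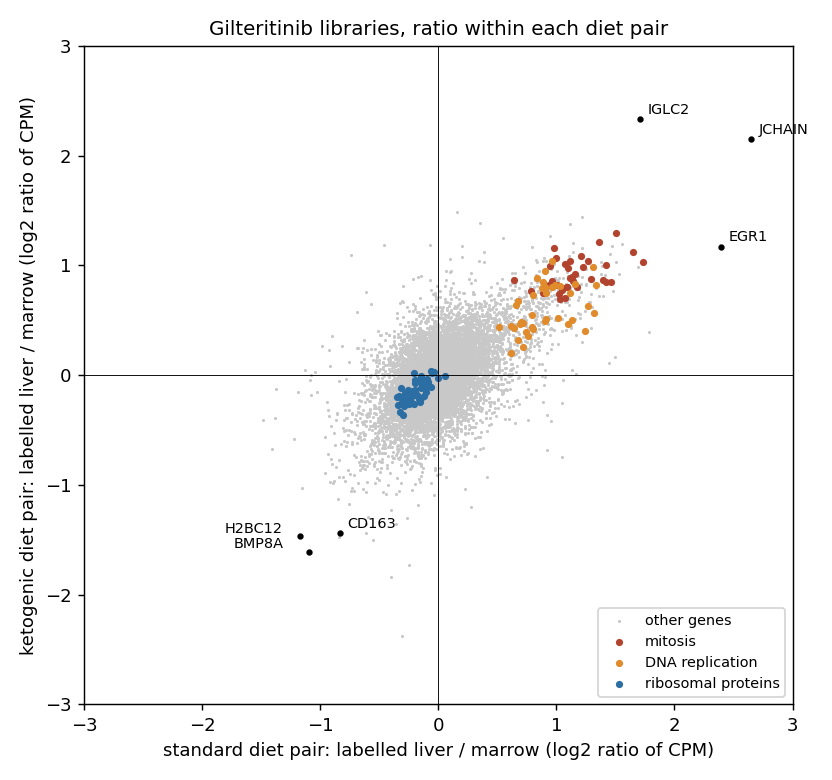
Each point is a gene that averaged 2 or more in log2 CPM over the 4 gilteritinib libraries. The horizontal axis gives the log2 ratio of labelled liver to marrow in the standard diet pair and the vertical axis the same in the ketogenic diet pair; mitosis and DNA replication genes lie to the upper right of the bulk and ribosomal protein genes just below and left of 0.

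The clearest group was the cell cycle, whose lists, like the others, were chosen with earlier results of these data known. All 36 tested mitosis genes, which build the spindle, the kinetochore and the cleavage furrow, were higher in the libraries labelled liver, at a median of 1.02 on the log2 scale and a range of 0.76 to 1.39, beside a median of -0.01 over all genes tested. In each of the 36 genes both libraries labelled liver lay above both marrow libraries, as they did in 20.9% of all tested genes. The median was 1.11 in the standard diet pair and 0.87 in the ketogenic diet pair. The list has 38 members, and NUSAP1 and PRC1 did not pass the count filter, with 0 to 5 counts in each gilteritinib library. In bulk RNA, fewer cycling cells and less of these transcripts per cell cannot be told apart.

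MKI67, the antigen used to mark cycling cells (chromosome 10, 128096659 to 128126385, GRCh38), was at 30.1 and 59.6 CPM in marrow and at 100.3 and 122 CPM in the libraries labelled liver. The lower of the labelled liver values was above the higher marrow value, and the lowest of all was marrow with standard diet. The log2 difference was 1.36 (SE 0.10, edgeR adjusted p = 6.37e-34). NDC80, the kinetochore subunit that grips microtubules (chromosome 18, 2571511 to 2616635), stood at 12.5 and 17.7 CPM in marrow and at 35.7 and 43.5 CPM in labelled liver, a difference of 1.39 (SE 0.13, edgeR adjusted p = 2.26e-23). It was the largest of the list.

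TOP2A, the topoisomerase that untangles chromosomes before they part, was at 87.5 and 78.4 CPM in marrow against 190 and 161 CPM, without overlap (log2 difference 1.08, SE 0.10, edgeR adjusted p = 1.29e-25). CDCA2, which brings a phosphatase to chromatin at mitotic exit, differed by 1.36 (SE 0.15), the spindle protein CKAP2L by 1.29 (SE 0.17) and the kinase MELK by 1.21 (SE 0.16). Mitotic genes outside the list were also among the 15 largest increases. The phosphatase CDC25C, which activates CDK1, was at 3.79 and 4.01 CPM in marrow and 8.93 and 11.03 CPM in labelled liver, a difference of 1.36 (SE 0.21). The spindle proteins SPAG5, TROAP and KIF15 and the mitotic kinase PBK differed by 1.20 to 1.32.

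DNA replication genes moved with them. All 40 members of the replication list were tested and all 40 were called higher in the libraries labelled liver. Their median was 0.76, with a range of 0.40 to 1.14. In each of the 40 both libraries labelled liver lay above both marrow libraries, as they did in 20.9% of all tested genes. RRM2, the regulated subunit of ribonucleotide reductase, which supplies deoxynucleotides (chromosome 2, 10120698 to 10131419), was at 61.0 and 76.6 CPM in marrow and at 151 and 152 CPM in the libraries labelled liver. Both pairs showed the gap, and the log2 difference was 1.14 (SE 0.10, edgeR adjusted p = 2.92e-27). CDC6, which loads the replicative helicase at origins, was at 19.3 and 28.9 CPM against 48.9 and 51.0 CPM (1.06, SE 0.12). ORC6 of the origin recognition complex, the polymerase epsilon subunit POLE2 and the cyclin CCNE2 differed by 1.01, 0.99 and 0.93. By contrast 10 of 13 tested members of a separate list of cyclins and their inhibitors, which holds the D cyclins and CDK inhibitors, were not called. In that list the pocket protein RBL1 was higher by 0.69 (SE 0.13), while CCND1 was lower by a log2 difference of -0.33 and the inhibitor CDKN1A by -0.31.

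The promoters of these genes were searched because the list members moved together. RefSeq promoters (GRCh38.p14, 250 bases before to 50 after each annotated start) were read on both strands for the CHR element (TTTGAA or TTCGAA), which recruits the DREAM and MYB-MuvB complexes to mitotic genes, and for the CCAAT box (CCAAT), bound by NF-Y. The CHR letters were in 26 of 34 promoters of the 31 mitosis genes found in the table (76.5%), against 2 of 45 promoters of 35 replication genes (4.44%) and 16.4% of all 35116 promoters. The CCAAT letters were in 76.5% of the mitosis promoters, 60.0% of the replication promoters and 34.6% of all promoters, and both motifs together were in 61.8%, 4.44% and 6.38%. Among the 13781 promoters of tested genes the CHR letters were in 11.98%, the CCAAT letters in 34.9% and both in 4.85%. The 31 mitosis genes include NUSAP1 and PRC1, which were not tested and hold both motifs. A match is a description of the sequence and does not show binding. The first 4 promoters below belong to mitosis genes described above and the last 2 to replication genes, each 5′ to 3′ along the gene, with CHR and CCAAT matches on either strand in capitals. A CHR match and a CCAAT match on the reverse strand overlap in MKI67.
MKI67 promoter (chr10:128126374-128126673, strand -): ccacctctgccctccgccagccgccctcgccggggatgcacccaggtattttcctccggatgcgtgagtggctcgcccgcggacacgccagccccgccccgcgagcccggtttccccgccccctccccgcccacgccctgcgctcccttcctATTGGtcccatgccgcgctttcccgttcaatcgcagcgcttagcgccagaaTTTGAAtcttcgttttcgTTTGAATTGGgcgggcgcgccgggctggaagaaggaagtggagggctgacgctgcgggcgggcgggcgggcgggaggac
TOP2A promoter (chr17:40417847-40418146, strand -): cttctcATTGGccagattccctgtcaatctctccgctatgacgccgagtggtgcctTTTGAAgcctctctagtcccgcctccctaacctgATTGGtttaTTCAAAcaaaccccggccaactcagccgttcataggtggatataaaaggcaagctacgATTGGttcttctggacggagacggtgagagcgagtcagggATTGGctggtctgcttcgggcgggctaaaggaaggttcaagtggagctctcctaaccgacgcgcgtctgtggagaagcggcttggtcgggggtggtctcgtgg
NDC80 promoter (chr18:2571307-2571606, strand +): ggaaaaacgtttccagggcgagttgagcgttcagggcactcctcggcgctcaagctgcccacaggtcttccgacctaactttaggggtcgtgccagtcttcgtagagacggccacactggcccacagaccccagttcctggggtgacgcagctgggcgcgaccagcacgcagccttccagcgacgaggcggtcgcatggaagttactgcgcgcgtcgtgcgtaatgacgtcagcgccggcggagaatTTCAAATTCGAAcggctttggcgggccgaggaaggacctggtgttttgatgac
CKAP2L promoter (chr2:112764560-112764859, strand -): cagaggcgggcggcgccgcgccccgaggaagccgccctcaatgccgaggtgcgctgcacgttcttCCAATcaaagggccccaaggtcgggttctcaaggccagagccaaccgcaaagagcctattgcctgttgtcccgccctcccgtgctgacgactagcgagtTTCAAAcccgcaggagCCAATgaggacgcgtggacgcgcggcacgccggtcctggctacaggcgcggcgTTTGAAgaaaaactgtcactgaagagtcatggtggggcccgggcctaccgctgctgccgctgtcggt
RRM2 promoter (chr2:10122489-10122788, strand +): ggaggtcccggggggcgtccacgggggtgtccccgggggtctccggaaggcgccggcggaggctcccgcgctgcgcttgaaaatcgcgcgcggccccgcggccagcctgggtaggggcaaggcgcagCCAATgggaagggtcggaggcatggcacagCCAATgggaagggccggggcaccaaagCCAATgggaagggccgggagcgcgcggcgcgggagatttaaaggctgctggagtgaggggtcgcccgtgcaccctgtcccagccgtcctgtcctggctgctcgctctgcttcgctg
CDC6 promoter (chr17:40287629-40287928, strand +): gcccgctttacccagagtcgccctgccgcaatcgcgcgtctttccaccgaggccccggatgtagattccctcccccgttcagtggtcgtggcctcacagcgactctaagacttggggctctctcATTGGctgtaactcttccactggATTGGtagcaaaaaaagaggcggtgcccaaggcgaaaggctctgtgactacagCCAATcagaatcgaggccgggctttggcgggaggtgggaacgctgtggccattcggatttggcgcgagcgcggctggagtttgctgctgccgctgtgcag

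Printed in this way, MKI67 and CKAP2L each hold 2 CHR matches and 2 CCAAT matches, TOP2A 2 and 4, and NDC80 2 CHR matches and no CCAAT match. RRM2 and CDC6 hold 3 CCAAT matches each and no CHR match. MELK, also among the largest increases, had neither motif in its window. The searched windows do not cover more distant elements.

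Under vehicle the same contrast gave a median of 0.04 for the mitosis list and -0.02 for the replication list. There 3 mitosis genes were called higher (MKI67, CENPF and UBE2C) and no replication gene was called by edgeR. In that comparison 822 of 13784 genes (5.96%) were called, 491 higher (3.56%) and 331 lower (2.40%), which became 273 and 714 with library totals as the scaling, and 45 were called by DESeq2. The contrast itself differed between gilteritinib and vehicle for 31 of 36 mitosis genes and 30 of 40 replication genes, each in the positive direction, where 276 of 14749 genes (1.87%) were called more positive under gilteritinib (edgeR test of the interaction in all 8 libraries, adjusted p under 0.05). A further 172 (1.17%) were called more negative, 448 (3.04%) in all. For RRM2 the interaction was 1.20 (SE 0.16, edgeR adjusted p = 5.13e-05) and for NDC80 it was 1.32 (SE 0.20, edgeR adjusted p = 0.000237). MKI67 was an exception: it was already higher in labelled liver under vehicle, by 0.58 (SE 0.10), and its interaction of 0.73 (SE 0.37) had an edgeR adjusted p = 0.426.

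The levels in each library show the same. The mean log2 CPM of the mitosis list was 6.04 and 6.01 in marrow under vehicle and 4.58 and 4.96 under gilteritinib. In the libraries labelled liver it was 6.03 and 6.12 under vehicle and 5.73 and 5.88 under gilteritinib. The replication list went from 5.83 and 5.88 to 4.98 and 5.33 in marrow, and from 5.78 and 5.87 to 5.88 and 5.94 in labelled liver. The marrow libraries under gilteritinib thus stood apart from the other 6 in both lists, and marrow with standard diet was the lowest. With that library left out of the 4, 19 of 36 mitosis genes and 3 of 40 replication genes were still called. Replication calls fell to 25, 22 and 15 when marrow ketogenic diet, labelled liver standard diet or labelled liver ketogenic diet was left out instead, against 35, 35 and 30 for mitosis.

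**Figure D2:**
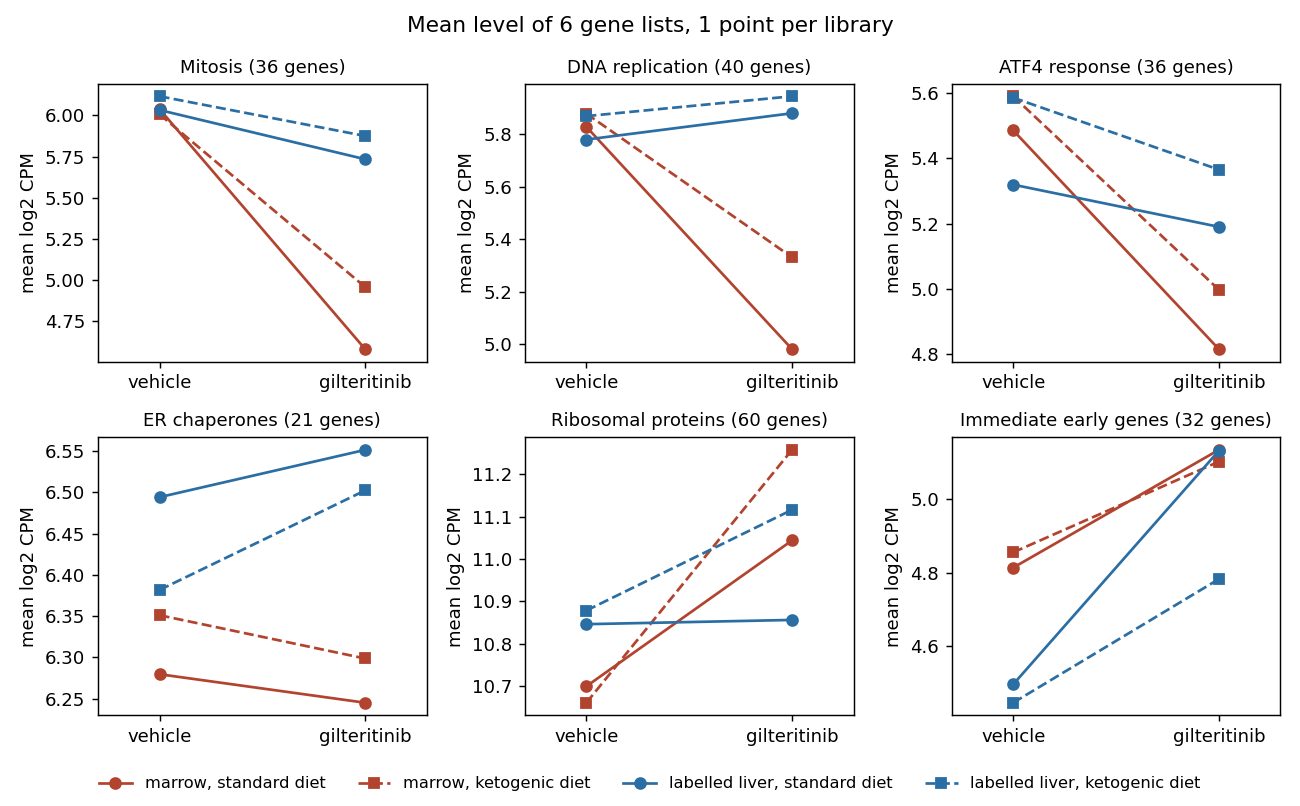
Each panel plots the mean log2 CPM of the tested members of 1 gene list (vertical axis, scales differ between panels) in 8 libraries, vehicle to the left and gilteritinib to the right, with red for marrow, blue for labelled liver, circles for the standard diet and squares for the ketogenic diet. In the mitosis and DNA replication panels the 2 marrow libraries under gilteritinib lie below the other 6.

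A second group that was higher in the libraries labelled liver was the amino acid response. ATF4 is the transcription factor that cells switch on when amino acids run short or proteins misfold, and its targets include the serine synthesis enzymes and amino acid transporters. Of 36 tested members of the list 15 were higher (41.7%) and none was lower, at a median of 0.29, beside 5.91% and 5.93% of all genes tested. In 23 both libraries labelled liver lay above both marrow libraries, as they did in 20.9% of all tested genes. PHGDH, the first enzyme of serine synthesis (chromosome 1), was at 61.5 and 107 CPM in marrow and at 155 and 185 CPM in labelled liver. The values of the labels did not overlap, and the log2 difference was 1.06 (SE 0.10, edgeR adjusted p = 2.20e-24). ALDH1L2, a mitochondrial folate enzyme, was at 10.5 and 16.3 CPM against 29.5 and 27.8 CPM (1.09, SE 0.14). PSAT1, the next enzyme of serine synthesis, differed by 0.67 (SE 0.10), and the stress factor DDIT3 by 0.82 (SE 0.26). CHAC1, which degrades glutathione, had the largest change of the list at 1.46 (SE 0.39) but only 0.261 to 2.64 CPM. Under vehicle 1 member was higher and 2 were lower, at a median of -0.10, and the interaction was called for 6 of 36, each in the positive direction, among them ALDH1L2 (1.49, SE 0.21), PHGDH (0.98, SE 0.17) and PSAT1 (0.90, SE 0.16). The count of 15 was 1 without the diet term and 0 to 5 when any 1 of the 4 libraries was left out, 0 without marrow standard diet.

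Chaperones of the endoplasmic reticulum formed a related group with another pattern. Of 21 tested members 8 were higher (38.1%) and none was lower, at a median of 0.24. Of all genes tested 5.91% were called higher and 5.93% lower. HSPA5, the main chaperone of that compartment, was at 315 and 340 CPM in marrow and at 495 and 469 CPM in labelled liver, without overlap (0.56, SE 0.09, edgeR adjusted p = 7.88e-09). The secreted stress protein MANF differed by 0.59 (SE 0.11), CRELD2 by 0.55 (SE 0.12) and the disulfide isomerase PDIA4 by 0.50 (SE 0.10). Under vehicle 4 of the 21 were higher and none lower, at a median of 0.10, with MANF at 0.58 (SE 0.12), CRELD2 at 0.59 (SE 0.13) and HSPA5 at 0.40 (SE 0.09), and no member had an interaction that passed the test. Of 16 cytosolic and mitochondrial heat shock genes 4 were higher (25%) and none was lower, among them HSPH1 at 0.43 and HSP90AA1 at 0.39. The heat shock median was 0.22, with 0.03 in the standard diet pair and 0.32 in the ketogenic diet pair. When any 1 of the 4 libraries was left out, 0 or 1 of the 8 calls among the chaperones was made.

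Genes that report on signalling below FLT3 split. EGR1, a transcription factor induced within minutes by the MAP kinase pathway (chromosome 5, 138465490 to 138469315), was at 6.01 and 9.12 CPM in marrow and at 32.0 and 20.6 CPM in the libraries labelled liver. Both labelled liver values lay above both marrow values, and the log2 difference was 1.74 (SE 0.16, edgeR adjusted p = 1.89e-25). Under vehicle EGR1 lay the other way, at 34.9 and 48.1 CPM in marrow and 27.5 and 22.7 CPM in labelled liver (-0.71, SE 0.13), and the interaction was 2.49 (SE 0.39, edgeR adjusted p = 0.00806). The 2 marrow libraries under gilteritinib were the low ones among all 8. No other of the 32 tested immediate early genes was called higher, while 9 were called lower (28.1%), beside 5.93% of all genes tested. The list median was -0.19, with -0.12 in the standard diet pair and -0.37 in the ketogenic diet pair. Under gilteritinib the list mean was 5.13 and 5.10 log2 CPM in marrow and 5.13 and 4.78 in labelled liver. That mean was thus lowest in labelled liver with ketogenic diet. The AP-1 factor FOSL2 was at 114 and 121 CPM in marrow against 78.8 and 60.8 CPM (-0.76, SE 0.10, edgeR adjusted p = 2.10e-12). JUN was lower by a log2 difference of -0.59 (SE 0.12), KLF2 by -0.54 (SE 0.10) and CCN2 by -0.66 (SE 0.17), while FOS had -0.18 (SE 0.08, edgeR adjusted p = 0.141). Under vehicle 14 of the 32 were lower in labelled liver and 2 higher, at a median of -0.35. The 9 lower calls were 0 without marrow ketogenic diet or labelled liver ketogenic diet, 2 without marrow standard diet and 5 without labelled liver standard diet.

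The immediate early promoters were also searched for CArG boxes, the sites of serum response factor. The letters CC, then 6 bases that are each A or T, then GG were searched on both strands in the same windows. They were in 3 of 36 promoters of the 27 immediate early genes found (8.33%). The share was 1.29% of all promoters and 1.06% of promoters of tested genes. EGR1 and SRF hold 2 such matches each and EGR2 holds 1. EGR1 is shown, with its matches in capitals, because it was called in the direction opposite to the other called members. Its window also holds 1 CHR match, left in lower case.
EGR1 promoter (chr5:138465229-138465528, strand +): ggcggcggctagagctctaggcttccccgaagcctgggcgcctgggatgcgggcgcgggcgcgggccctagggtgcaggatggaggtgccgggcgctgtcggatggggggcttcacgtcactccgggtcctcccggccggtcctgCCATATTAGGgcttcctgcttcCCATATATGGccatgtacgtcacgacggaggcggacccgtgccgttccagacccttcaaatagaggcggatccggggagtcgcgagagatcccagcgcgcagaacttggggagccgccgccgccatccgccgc

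STAT5 targets, which FLT3-ITD switches on, were mixed. Of 14 tested members 4 were higher (28.6%) and 1 was lower (7.14%) in the libraries labelled liver. The feedback inhibitor SOCS1 was higher by 0.63 (SE 0.17), the phosphatase CDC25A by 0.49 (SE 0.14), the kinase PIM1 by 0.38 (SE 0.09) and the feedback inhibitor CISH by 0.37 (SE 0.11). PIM1 was at 229 and 175 CPM in marrow and at 321 and 209 CPM in labelled liver, so its labels overlapped across the diets. MYC, a transcription factor that drives growth, was lower, at 146 and 136 CPM against 110 and 120 CPM (-0.29, SE 0.09, edgeR adjusted p = 0.0219). Under vehicle MYC was higher in labelled liver (0.35, SE 0.10), and its interaction was -0.64 (SE 0.16, edgeR adjusted p = 0.0170). Of 17 MAP kinase output genes EGR1 was higher and MAP2K3 (-0.41), the ERK phosphatase DUSP6 (-0.37) and CCND1 were lower. Of 24 NF-kB targets the chemokine CCL3 was higher, while RELB (-0.76), NFKB2 (-0.48) and NFKB1 (-0.34) were lower. The 1 higher call was 5.88% of the MAP kinase list and 4.17% of the NF-kB list, near the 5.91% of all genes tested. The lower calls were 17.6% and 12.5%, beside 5.93% of all genes tested.

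**Figure D3:**
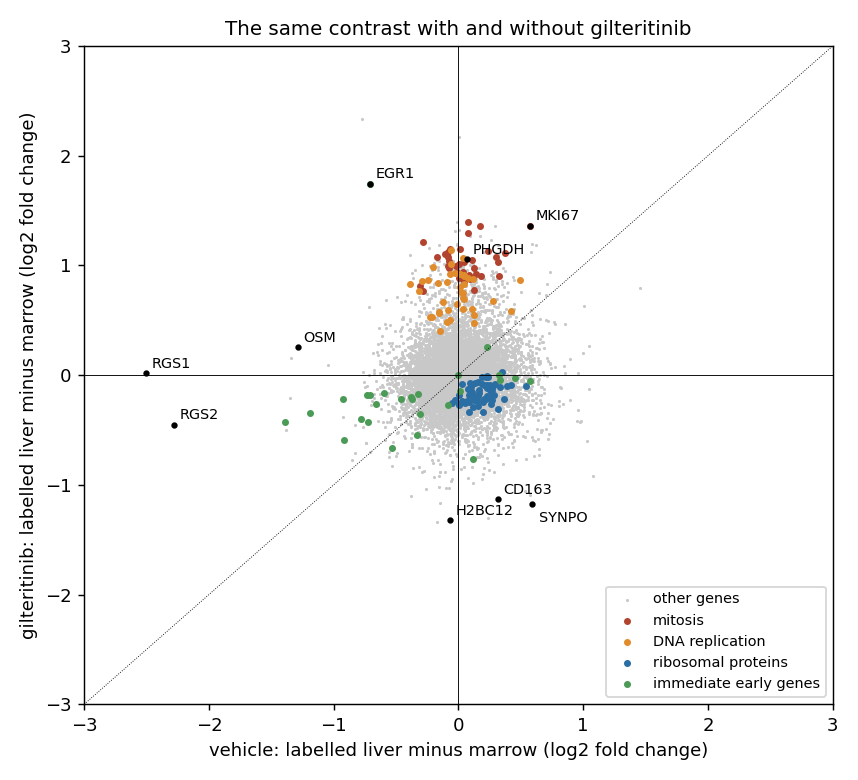
Each point is a gene, with the log2 fold change of labelled liver against marrow under vehicle on the horizontal axis and under gilteritinib on the vertical axis; the 2 contrasts share no library, and the dotted line marks equal values. Mitosis and DNA replication genes sit high on the vertical axis near 0 on the horizontal one, and RGS1, RGS2 and OSM lie far left.

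Of 27 tested maturation products of monocytes 11 were lower in the libraries labelled liver, 4 were higher and 12 were not called, at a median of -0.17 (-0.15 in the standard diet pair and -0.31 in the ketogenic diet pair). The lower calls were 40.7% and the higher calls 14.8%, beside 5.93% and 5.91% of all genes tested. Of the 45 in the list, 18 did not pass the count filter. CD163, the scavenger receptor for haemoglobin (chromosome 12, 7470813 to 7503893), was at 15.7 and 14.1 CPM in marrow and at 8.74 and 5.12 CPM in labelled liver. No value of one label reached the other, and the log2 difference was -1.13 (SE 0.17, edgeR adjusted p = 2.12e-09). Under vehicle its levels were 1.88 to 3.86 CPM at both sites, and the interaction was -1.42 (SE 0.34, edgeR adjusted p = 0.0142). MMP9, a protease that digests matrix, was at 10.8 and 6.36 CPM in marrow against 1.46 and 2.11 CPM (-2.23, SE 0.24, edgeR adjusted p = 1.03e-17), with an interaction that did not pass the test (adjusted p = 0.21 in edgeR).

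Lysozyme (LYZ), the abundant antibacterial enzyme, ran the other way, at 3921 and 4901 CPM in marrow and at 6361 and 6055 CPM in labelled liver. The log2 difference was 0.50 (SE 0.08, edgeR adjusted p = 4.88e-09). The lectin FCN1 was at 5.03 and 7.87 CPM against 14.4 and 8.85 CPM (0.80, SE 0.18), and the calprotectin subunits S100A8 and S100A9 were higher by 0.79 and 0.95 at 1.70 to 5.44 CPM. Integrin ITGAM, the receptor CSF1R and the receptor adaptor TYROBP, the last chosen after its values were seen, were lower by log2 differences of -0.52, -0.57 and -0.74. The 11 lower calls were 1 to 6 when any 1 of the 4 libraries was left out, the fewest without labelled liver ketogenic diet. Among 13 granule proteins MS4A3 was higher by 0.45 (SE 0.10) and BPI, RNASE2 and SRGN were lower by -0.37, -0.31 and -0.23. The higher call was 7.69% of that list, near the 5.91% of all genes tested, and the lower calls were 23.1%, beside 5.93%. Kupffer cell and macrophage markers summed to 78.5 and 87.7 CPM in marrow and 66.9 and 45.4 CPM in labelled liver, led by CSF1R, and their part in the monocyte result was not tested.

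Transcription factors of the leukaemia were lower or not called. Of 30 tested 6 were lower (20%) and none was higher, beside 5.93% and 5.91% of all genes tested. The median was -0.10, with -0.08 in the standard diet pair and -0.22 in the ketogenic diet pair. The list mean was 5.78 and 5.85 log2 CPM in marrow and 5.79 and 5.58 in labelled liver. That mean was thus lowest in labelled liver with ketogenic diet and not lower in the standard diet pair. LMO2, a bridging factor of haematopoietic complexes, was at 153 and 152 CPM in marrow and at 103 and 98.1 CPM in labelled liver (-0.60, SE 0.09, edgeR adjusted p = 1.76e-08). Its 4 values fell into separate ranges by label. GATA2 differed by -0.52 (SE 0.11), and the myeloid factors CEBPA and CEBPD by -0.47 each.

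Surface receptors came next. Of 20 tested receptors of leukaemia cells 8 were lower (40%) and 1 was higher (5%), beside 5.93% and 5.91% of all genes tested. Their median was -0.21. The median was -0.09 in the standard diet pair and -0.34 in the ketogenic diet pair. The mean log2 CPM of the list was 4.42 and 4.48 in marrow and 4.46 and 4.22 in labelled liver, so it was lowest in labelled liver with ketogenic diet and not lower in the standard diet pair. FLT3 itself, the target of the drug, was at 595 and 477 CPM in marrow and at 536 and 349 CPM in labelled liver. Its ranges overlapped across diets, and the log2 difference was -0.30 (SE 0.08, edgeR adjusted p = 0.00553). With labelled liver ketogenic diet left out it was 0.0120, and without labelled liver standard diet -0.616. Both of these fits lack the diet term and set 1 labelled liver library against marrow of both diets. Within each diet pair labelled liver was below marrow, at 536 against 595 and 349 against 477 CPM. Under vehicle the log2 difference of FLT3 was -0.43 (SE 0.09), and the interaction of 0.12 (SE 0.18) was not called. CD70, a ligand of the tumour necrosis factor family on leukaemia cells, was at 37.8 and 40.8 CPM against 21.8 and 20.8 CPM (-0.88, SE 0.12, edgeR adjusted p = 4.70e-11). AXL, a kinase linked to resistance against FLT3 inhibitors, was lower by -0.71 (SE 0.14) here and by -0.83 (SE 0.14) under vehicle, and its relative TYRO3 was higher by 0.83 (SE 0.26). The interleukin 3 receptor chain IL3RA differed by -0.50 (SE 0.09) and CD33 by -0.34 (SE 0.10). PTPRC, the CD45 antigen by which the marrow cells were sorted, was at 141 and 101 CPM against 140 and 83.5 CPM (-0.14, SE 0.10, edgeR adjusted p = 0.393).

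Genes for homing, adhesion and matrix were also more often called lower than higher. Of 26 integrins and homing receptors 9 were lower (34.6%) and 2 higher (7.69%), beside 5.93% and 5.91% of all genes tested. Their median was -0.21 (-0.07 in the standard diet pair and -0.28 in the ketogenic diet pair). The list mean was 5.64 and 5.57 log2 CPM in marrow and 5.66 and 5.30 in labelled liver, again lowest in labelled liver with ketogenic diet and not lower in the standard diet pair. ICAM3, an adhesion ligand of leukocytes, was at 435 and 377 CPM in marrow and at 293 and 228 CPM in labelled liver (-0.65, SE 0.09, edgeR adjusted p = 2.14e-11). The integrins ITGB3 (-0.75) and ITGB5 (-0.66) were also lower. The exceptions were receptors for chemokines. CXCR4, which holds cells in the marrow, was at 143 and 152 CPM in marrow and at 188 and 196 CPM in labelled liver (0.38, SE 0.09, edgeR adjusted p = 0.000855), and it was higher under vehicle too (0.32, SE 0.10). CCR2, the receptor for CCL2, was higher by 0.98 (SE 0.27) at 1.98 to 5.33 CPM. Of 19 matrix and protease genes 6 were lower (31.6%) and 1 higher (5.26%), at a median of -0.31. Apart from MMP9 the lower ones included MMP2 (-1.80, SE 0.40), the protease ADAMTS10 (-0.74, SE 0.18) and the galectins LGALS3 (-0.57) and LGALS1 (-0.42). The interaction was called for 5 of the 19, each in the negative direction. Of 17 targets and regulators of TGF-beta and BMP signalling 5 were lower (29.4%) and none higher. They were led by BMP8A (-1.34, SE 0.23), which has a near-identical neighbour, and TGFB1 itself was at -0.38 (SE 0.09).

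Of interferon-stimulated genes, the antiviral programme, 12 of 35 tested were lower (34.3%) and 1 was higher (2.86%), at a median of -0.34. Of all genes tested 5.93% were called lower and 5.91% higher. The median was -0.41 in the standard diet pair and -0.06 in the ketogenic diet pair, and the mean log2 CPM of the list was 3.12 and 2.74 in marrow and 2.63 and 2.65 in labelled liver, so marrow with standard diet stood highest. OAS1, an antiviral enzyme that senses double-stranded RNA, was at 15.4 and 11.9 CPM in marrow and at 8.74 and 6.21 CPM in labelled liver. Its ranges did not overlap, and the log2 difference was -0.87 (SE 0.17, edgeR adjusted p = 1.05e-05). IFI6 differed by -0.92 (SE 0.21), MX2 by -0.83 (SE 0.28) and EPSTI1 by -1.79 (SE 0.48, at no more than 1.96 CPM), while MX1 was higher by 1.21 (SE 0.41). Under vehicle the list median was 0.02 with 1 higher and 3 lower, and 1 member had an interaction that passed the test. The 12 lower calls were 0 without marrow standard diet or labelled liver ketogenic diet, 4 without marrow ketogenic diet and 1 without labelled liver standard diet. CXCL10, a chemokine induced by interferon, was at 6.21 and 5.21 CPM in marrow and at 0.901 and 1.81 CPM in labelled liver (-2.06, SE 0.28, edgeR adjusted p = 1.46e-11). Of 16 MHC class II genes 6 were lower (37.5%) and 1 higher (6.25%). CD74, the invariant chain, was at 1166 and 1022 CPM against 953 and 693 CPM (-0.43, SE 0.08). The class II median was -0.10 in the standard diet pair and -0.48 in the ketogenic diet pair, and the list mean was 4.38 and 4.19 log2 CPM in marrow and 4.43 and 3.84 in labelled liver, so the low library was labelled liver with ketogenic diet. Class II genes were lower under vehicle too, where 6 of 15 were called, and no class II member had an interaction that passed the test. In class I HLA-E was lower by -0.49 (SE 0.09). HLA genes share sequence with each other, so their counts are less certain.

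Lists of lipid and energy metabolism followed. Of 24 cholesterol synthesis genes 4 were higher (16.7%) and none was lower (median 0.12). They were led by ACAT2, at 53.4 and 49.2 CPM against 78.5 and 71.5 CPM (0.55, SE 0.11). No fatty acid synthesis gene of 17 was called by edgeR. Its desaturase SCD was at 24.4 and 7.87 CPM in marrow and at 25.4 and 13.9 CPM in labelled liver (0.37, SE 0.14, edgeR adjusted p = 0.0749). Of 31 genes of fatty acid oxidation 3 were higher and 3 lower, 9.68% each way, beside 5.91% and 5.93% of all genes tested. CPT1A, the gate of mitochondrial fatty acid entry, followed the diet at both sites, at 33.5 and 67.0 CPM in marrow and 40.3 and 58.0 CPM in labelled liver, and the labels were at 0.01 (SE 0.11, edgeR adjusted p = 0.969). PDK4, a switch toward fat burning, had 0 and 23 counts in marrow and 1 and 29 counts in labelled liver, also by diet. The thioesterase ACOT7 was higher by 1.19 (SE 0.14), at 8.76 and 14.4 CPM against 22.9 and 29.6 CPM. OXCT1, the enzyme with which cells use ketone bodies, was at 48.1 and 40.8 CPM in marrow and at 70.5 and 55.8 CPM in labelled liver (0.50, SE 0.11, edgeR adjusted p = 0.000106). Its interaction was 0.66 (SE 0.16, edgeR adjusted p = 0.0158), and BDH1, the enzyme before it, was higher by 0.36. Of 28 glycolysis genes 2 were lower (7.14%), and of 24 hypoxia genes 1 was lower (4.17%), near the 5.93% of all genes tested.

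Ribosomal protein genes were lower by a small amount in many members. Of 60 tested 21 were lower (35%) and none was higher, beside 5.93% and 5.91% of all genes tested. The median was -0.18, with a range of -0.33 to 0.03, and 55 had a negative ratio in both pairs. In 18 both libraries labelled liver lay below both marrow libraries, as they did in 19.6% of all tested genes. RPL19, of the large subunit, was at 3466 and 3891 CPM in marrow and at 2760 and 3081 CPM in labelled liver (-0.33, SE 0.08, edgeR adjusted p = 0.000419). Under vehicle 20 of 60 were higher and none lower, at a median of 0.19, and the interaction was called for 3, RPL37, RPLP1 and RPS15, in the negative direction. With library totals as the scaling 6 were lower, and none was without the diet term or with any 1 of the 4 libraries left out. Ribosome assembly factors did not move with them, with 1 of 29 lower (3.45%), near the 5.93% of all genes tested. Of 52 respiratory chain genes 3 were higher (5.77%), near the 5.91% of all genes tested. Of 30 tested histone genes 4 were lower (13.3%) and 1 higher (3.33%), at a median of 0.20, beside 5.93% and 5.91% of all genes tested. H2BC12 was at 33.99 and 31.1 CPM in marrow and at 15.0 and 11.1 CPM in labelled liver (-1.32, SE 0.13, edgeR adjusted p = 3.50e-20), H2BC5 differed by -1.05 and the linker histone H1-2 by -0.95. Under vehicle H2BC12 was at 10.999 to 11.9 CPM in all 4 libraries, so the marrow libraries under gilteritinib were the high ones. Histone genes are near-identical copies, and their counts can be shared out between them. Of 33 lysosomal genes 9 were lower (27.3%) and 1 higher (3.03%), led by the cathepsins CTSL (-0.60, SE 0.18) and CTSD (-0.47, SE 0.10).

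**Figure D4:**
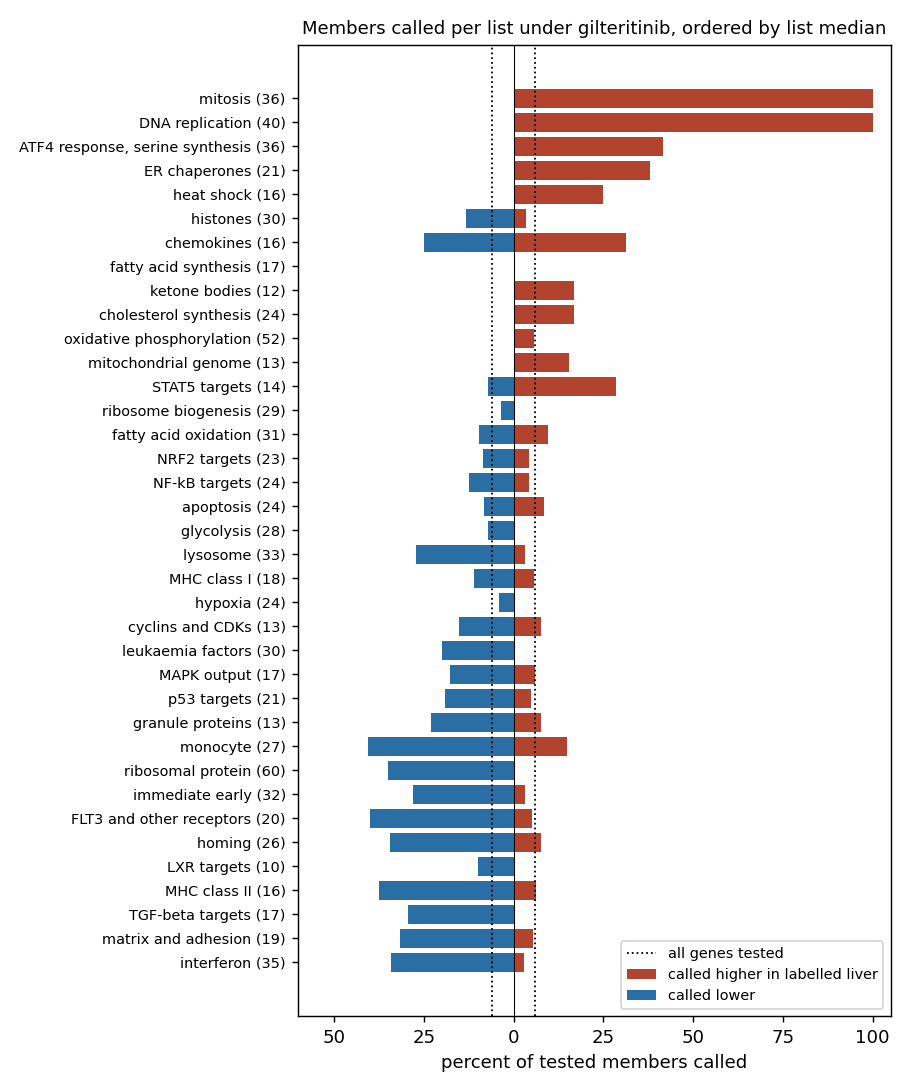
Bars give the percent of tested members (number in brackets) called higher in labelled liver (red, right) or lower (blue, left) under gilteritinib. Lists with 10 or more tested members are shown, except the leukaemia cell markers, ordered by the list median. Dotted lines mark the 5.91% and 5.93% of all tested genes. Mitosis and DNA replication reach 100% on the right, and monocyte, FLT3 and other receptor, MHC class II, ribosomal protein, homing and interferon genes have the longest bars on the left.

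Among genes averaging 2 or more in log2 CPM, the 2 largest differences were in genes of antibodies. JCHAIN, which joins antibody subunits in plasma cells (chromosome 4, 70655541 to 70681817), was at 1.37 and 4.48 CPM in marrow and at 9.12 and 20.2 CPM in labelled liver (2.33, SE 0.21, edgeR adjusted p = 1.86e-25). The light chain constant gene IGLC2 was at 1.63 and 2.60 CPM against 5.55 and 13.5 CPM (2.17, SE 0.24, edgeR adjusted p = 1.15e-16), and it has close copies beside it. Both were highest in the same library, labelled liver with ketogenic diet. Of 8 tested lymphoid markers 3 were higher, these 2 and IGKC (0.49), and 2 were lower, GNLY and NKG7. The sums of the marker list were 128 and 150 CPM in marrow and 111 and 137 CPM in labelled liver, led by NKG7. The part of lymphoid cells in these 2 genes was not tested. MYBPH, a myosin binding protein, was at 20.7 and 27.7 CPM against 67.2 and 55.0 CPM (1.33, SE 0.12), and the zinc finger gene ZNF367 differed by 1.27 (SE 0.19).

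On the other side the actin-binding protein SYNPO was at 10.9 and 13.5 CPM in marrow and at 6.04 and 4.82 CPM in labelled liver (-1.18, SE 0.18, edgeR adjusted p = 8.19e-09). The cytotoxic granule protein GNLY was at 22.3 and 30.7 CPM against 13.1 and 13.6 CPM (-0.98, SE 0.14), and the adhesion ligand ICAM4 at 47.3 and 46.6 CPM against 24.99 and 23.7 CPM (-0.95, SE 0.12). DPEP2, SRGAP3, YPEL3, ACSF2, UPB1, SERPINF1 and DLX2 differed by -1.17 to -1.02. Of these 7, DPEP2 and YPEL3 had much of their difference in the ketogenic diet pair, at -1.84 and -1.74 against -0.40 and -0.25 in the standard diet pair.

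**Figure D5:**
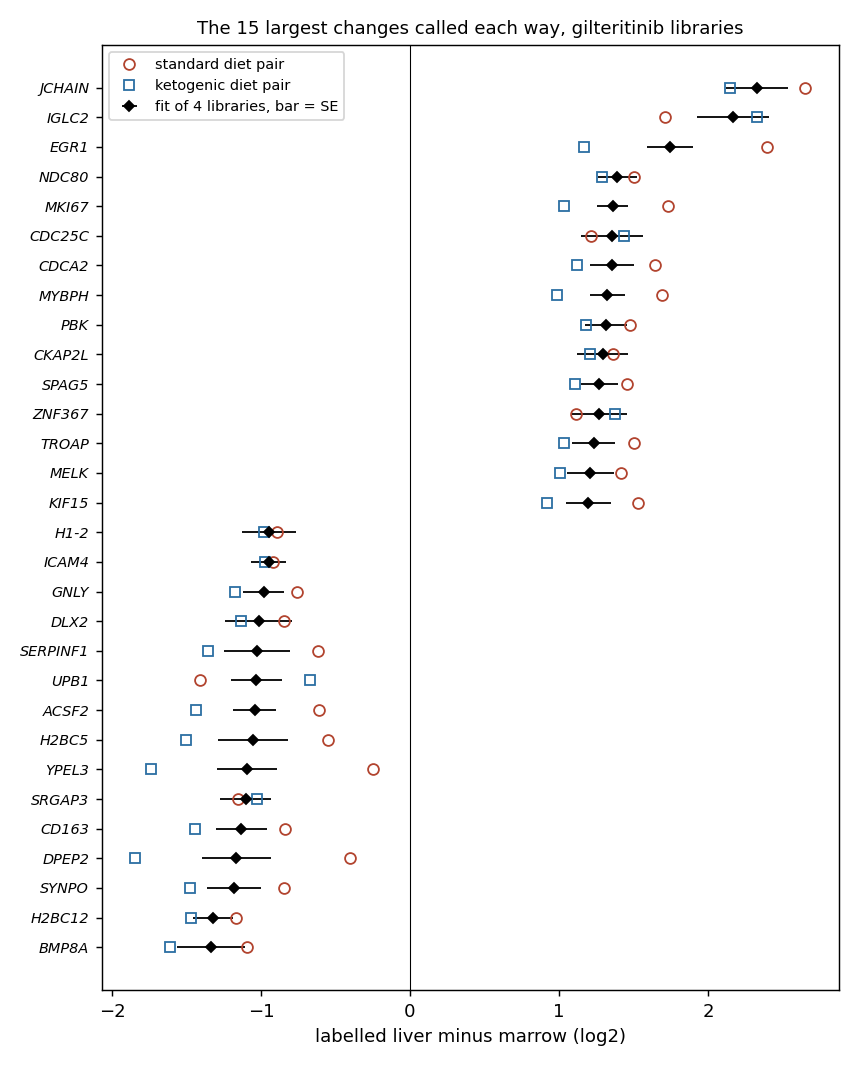
For the 15 largest increases and 15 largest decreases called under gilteritinib (genes averaging 2 or more in log2 CPM), black diamonds give the log2 difference of labelled liver minus marrow with its SE, open circles the ratio of the standard diet pair and open squares that of the ketogenic diet pair. Genes were chosen to have both pair ratios on the same side of 0, and JCHAIN, IGLC2 and EGR1 lie farthest to the right.

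Called genes differed in base composition as well as in function. The longest transcript of genes called higher had a median GC content of 44.8%, against 54.8% for genes called lower and 47.8% for genes not called. When each gene was set against genes of like GC content, the mitosis median went from 1.02 to 0.997, the replication median from 0.76 to 0.78, and the interferon median was -0.34 both ways. The monocyte median went from -0.17 to -0.20, the immediate early median from -0.19 to -0.15 and the ribosomal protein median from -0.18 to -0.16, while those of the amino acid response (0.30) and the chaperones (0.24) moved by less.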

How the data were processed

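The authors deposited 1 table of raw gene counts, with whole-number counts for 60676 human gene IDs in 8 libraries. Reads had been aligned with STAR 2.7.3a to GRCh38, per the submitters' processing notes, while the sources used here do not give the counter, its strand setting or how mouse reads were handled. Per the labels' protocols, marrow cells were sorted for human CD45 and liver pieces were extracted whole, total RNA was taken and mRNA libraries were sequenced in pairs. Without a strand setting, reads of a gene and of an overlapping or antisense gene cannot be told apart.

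Genes with at least 10 counts in at least 2 libraries were tested in R 4.3.3 with the quasi-likelihood test of edgeR 4.0.16, TMM factors and terms for diet and tissue label. The gilteritinib comparison and the vehicle comparison used 4 libraries each, and the difference between them used all 8 with 1 diet term. Calls had a Benjamini-Hochberg adjusted p under 0.05 over all genes tested. CPM values in log2 had a prior count of 2. DESeq2 1.42.0 and limma 3.58.1 gave alternatives, with other scalings, filters, terms and left-out libraries. The scripts were tested on simulated data. Each combination of label, drug and diet had 1 library, so no spread between replicates could be measured. In the fits of 4 libraries p-values rest on 1 residual degree of freedom and on a spread drawn nearly all from other genes. That spread may be technical. With 1 of the 4 libraries left out no residual degree of freedom remains for a diet term, so those fits lack it. The lone library left by a leave-one-out fit is assumed to vary like the others. Totals ran from 15557885 to 27657147 counts in the gilteritinib libraries, and floors cover counting error only.

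The comparison, the gene lists and the named genes were chosen with earlier results of these data known. Of 1117 list symbols 1112 were in the table. Named were the 15 largest called changes each way with the same sign in both pairs and a log2 CPM averaging 2 or more, up to 5 called members of each list by size, the 10 largest differences each way between drug states, and a short set of leukaemia, cell cycle and diet genes. Clone names, small RNAs, antisense transcripts, numbered pseudogenes and sex-linked markers were passed over. Gene coordinates are from GENCODE 29 on GRCh38, which held 96.4% of the IDs.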

Additional observations from a re-analysis of the deposited data

Results flagged for a closer look

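The contrast of labelled liver against marrow differed between gilteritinib and vehicle for 448 genes (edgeR interaction test). Values below are the contrast under gilteritinib minus that under vehicle, on the log2 scale, and each is singled out because its test of the difference passed. Among the 10 largest positive ones, RGS1, which damps G protein signalling, had 2.50 (SE 0.36). It was at 21.1 and 19.1 CPM in marrow under vehicle and 3.13 and 3.89 CPM in labelled liver, and under gilteritinib at 31.6 and 17.2 CPM against 34.3 and 16.04 CPM. So its label difference was present under vehicle and not called under gilteritinib. The cytokine OSM (1.52) had the same shape, with contrasts of -1.28 under vehicle and 0.25 under gilteritinib. RGS2 (1.83) was called lower in both states, at -2.28 under vehicle and -0.45 under gilteritinib. EGR1 had 2.49. The cell cycle genes CENPI (1.51), MELK (1.49), E2F8 (1.39) and PBK (1.35), the folate enzyme ALDH1L2 (1.49) and the flippase ATP8B2 (1.40) were low in marrow under gilteritinib.

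Among the 10 largest negative ones, SYNPO had -1.76, CD163 -1.42, the troponin TNNT1 -1.36, ADAMTS10 -1.35, H2BC12 -1.26, the scaffold HOMER3 -1.23, CTSL -1.19, BMP8A -1.18, CD70 -1.18 and NCF1C -1.17. NCF1C is a close copy of NCF1, so its counts are less certain. In each of the 10 except BMP8A both marrow libraries were higher under gilteritinib than under vehicle.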

How the results depend on the processing

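The 1685 calls under gilteritinib (841 higher, 844 lower) were 562 (379 and 183) without the count filter, 597 (352 and 245) by DESeq2, 108 (88 and 20) without the diet term, 897 (519 and 378) with all 8 libraries and 1 diet term, and 362 (286 and 76) with a diet term per label. Leaving out 1 library gave 130 to 1073 (71 to 603 and 39 to 470). That range pools fits of the 4 gilteritinib libraries, which gave its lower ends, and fits of all 8. Its upper ends come from the fit of all 8 with labelled liver vehicle standard diet left out. They therefore compare with the 897 calls of the full fit of 8, not with the 1685. The 822 vehicle calls were 45 (23 and 22) by DESeq2 and 26 (14 and 12) in the fit of 8, and library totals split them 273 and 714. The 448 differences were 189 to 836 with 1 library left out (120 to 414 positive, 43 to 422 negative), and library totals gave 99 negative ones. Under gilteritinib library totals split the calls 1057 and 591.

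Mitosis calls were 19 to 36 with 1 library left out, replication calls 3 to 40 and 12 without the diet term. Both of these left-out ranges pool fits of the 4 gilteritinib libraries and fits of all 8, and their upper ends come from fits of all 8. For later lists the order is no filter, DESeq2, no diet term, all 8 libraries with 1 diet term, then a diet term per label. Last comes the range with 1 library left out, which pools fits of the 4 gilteritinib libraries and fits of all 8. The amino acid response gave 6, 7, 1, 8, 3 and 0 to 9. Interferon gave 2, 2, 0, 5, 3 and 0 to 7, and 7 at equal depth. Monocyte genes gave 4, 3, 2, 7, 3 and 1 to 9. Ribosomal proteins gave 2, 6, 0, 2, 0 and 0 to 2, and 6 with library totals. Immediate early genes gave 1 without the filter, 4 by DESeq2, 0 without the diet term, 1 with a diet term per label and 0 to 8. Chaperones gave 0 without the diet term and 0 to 7.

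In 6 named genes that were called in the full fit, the sign of the gilteritinib contrast turned when 1 library was left out. Of the ranges over left-out libraries, FLT3 ran from -0.616 to 0.0120 (positive without labelled liver ketogenic diet), S100A9 from -0.0472 to 1.73, MS4A3 from -0.105 to 1.08 and IGKC from -0.0355 to 1.22 (negative without marrow standard diet), SLC25A20 from -0.836 to 0.0328 (positive without marrow ketogenic diet) and MT-ND4L from -0.0242 to 0.491 (negative without labelled liver standard diet). The cause was not tested. Over named genes and settings 2880 values kept their side of the threshold, 1728 lost the call, 3 gained it and 6 reversed. GC-centred medians were added after the data were seen. The libraries were paired by diet, through the diet term, and the labels give no replicate numbers for another pairing.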
